A study of Mus musculus with 8 samples.

Results

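Tfrc encodes the transferrin receptor, the cell-surface protein that binds iron-loaded transferrin and carries it into the cell. Its transcript was read by 1 probe, printed on 20 spots of each array and identified by a RefSeq accession of mouse Tfrc in the spot files. It is 1 of 15 genes with a named probe on these arrays. Tfrc was chosen by its readout, as the gene with the largest difference between propofol and vehicle among those 15, so that difference is described here and carries no test. The 8 arrays hold hippocampal RNA of mice aged 7 days, 4 from mice injected intraperitoneally with propofol at 50 mg/kg and 4 from mice given 50 mg/kg of intralipid, the lipid vehicle. The exposure lasted 3 h and a washout of 3 h preceded tissue collection. Propofol is an intravenous general anaesthetic that acts mainly at GABA-A receptors. The labels give no genotype, strain or sex, and do not state how many animals went into each array, so the spread between arrays may be partly technical.

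Iron enters most cells as transferrin bound to this receptor, which is taken up in endosomes, releases its iron there and returns to the surface. When iron in the cell is low, iron regulatory proteins bind hairpins in the Tfrc transcript and protect it from decay, so its level is widely read as a sign of the need for iron. Tfrc is also raised by hypoxia-inducible factors and is high in dividing cells, red cell precursors and the endothelium of brain vessels. In the newborn rodent brain, iron uptake serves growth, myelination and the enzymes of energy metabolism.

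RefSeq lists 2 start sites for Tfrc on the forward strand of mouse chromosome 16 in GRCm38.p6, 226 bases apart. The window at chr16:32608646-32608945 runs from 250 bases before to 50 bases after the upstream start, and is shown because 2 short motifs, of kinds described in the promoter of the human gene, lie beside that start. The capitals mark ACGTG, the core of a hypoxia response element, from base 249, and TGACG, the core of a cAMP response element, from base 264.
Tfrc: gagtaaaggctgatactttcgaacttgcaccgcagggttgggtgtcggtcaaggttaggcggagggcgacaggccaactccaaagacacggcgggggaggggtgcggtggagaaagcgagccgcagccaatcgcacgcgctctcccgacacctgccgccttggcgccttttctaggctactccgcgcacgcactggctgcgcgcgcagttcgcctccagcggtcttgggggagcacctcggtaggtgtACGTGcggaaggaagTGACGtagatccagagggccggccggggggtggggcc
Each motif was searched on both strands, occurred 1 time in the window and did not overlap the other. ACGTG was present in 19.6% and TGACG in 20.8% of the 32851 RefSeq promoter windows of the same length. The GC box GGGCGG, searched in the same way, was absent from these letters and present in 35.7% of all windows. The window around the downstream start shares 74 bases with this one, including both motifs, and holds 2 GC boxes. The arrays measured transcripts only, so these matches describe the sequence and not binding.

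The 75th percentile of the spot signal, to which each array was scaled, ran from 656 to 991 units in vehicle and from 871 to 1006 units in propofol. The lowest spot signal was 3.30 to 3.93 units in vehicle and 4.44 to 7.60 units in propofol. All vehicle arrays had a barcode starting with 1 and all propofol arrays one starting with 2, per the file headers. Whether this barcode number marks a slide or a place on a slide is not known here. A difference that goes with the barcode number and one between the treatments cannot be told apart for Tfrc.

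Tfrc gave a strong signal in every array. All 20 spots were well above background on each of the 8 arrays, with a median local background of 23 to 31.3 units under processed signals of 15193 to 42945 units. None was saturated, and 1 of the 160 spot values, in propofol replicate 2, was marked as an outlier and dropped. Levels below are the mean over spots of log2 signal minus log2 of the array's 75th percentile.

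In vehicle, the Tfrc level was 4.91 in replicate 1, 4.73 in replicate 2, 4.82 in replicate 3 and 4.34 in replicate 4. In propofol, it was 4.67 in replicate 1, 5.34 in replicate 2, 5.25 in replicate 3 and 5.26 in replicate 4. On a linear scale these are 20.2 to 30.1 times the array's 75th percentile in vehicle, 25.5 times in propofol replicate 1 and 38.0 to 40.6 times in the other propofol arrays. The last 3 propofol arrays therefore lay above every vehicle array, by at least 0.33 on the log2 scale, and propofol replicate 1 lay among the vehicle arrays, so the groups overlapped.

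The mean level was 4.70 ± 0.25 (SD, n = 4) for the vehicle arrays and 5.13 ± 0.31 (SD, n = 4) for the propofol arrays, a log2 difference of 0.43 with a standard error of 0.19 in limma. Its 95% interval ran from -0.0069 to 0.87, that is 0.995-fold to 1.83-fold around a 1.35-fold higher mean. The difference was larger than the SD of either group, and the interval included no difference at its lower end. By limma over all tested probes, 0 of 47777 (0%) passed an adjusted p of 0.05, Tfrc included, and 3756 (7.86%) had an unadjusted p under 0.05. A mean at least as much higher in propofol as that of Tfrc was found for 4.89% of the tested probes, and one at least as much lower for 5.96%. Of 46848 probes measured on each of the 8 arrays, 5.83% had, like Tfrc, 3 propofol arrays above every vehicle array and 1 that was not. The median tested probe differed by -0.04, which leaves the Tfrc difference at 0.47 relative to it. These shares describe the arrays as a whole, and since Tfrc was picked for its difference nothing is read from its place among them. In bulk hippocampus, more Tfrc transcript per cell and more cells of a type rich in it cannot be told apart.

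**Figure D1:**
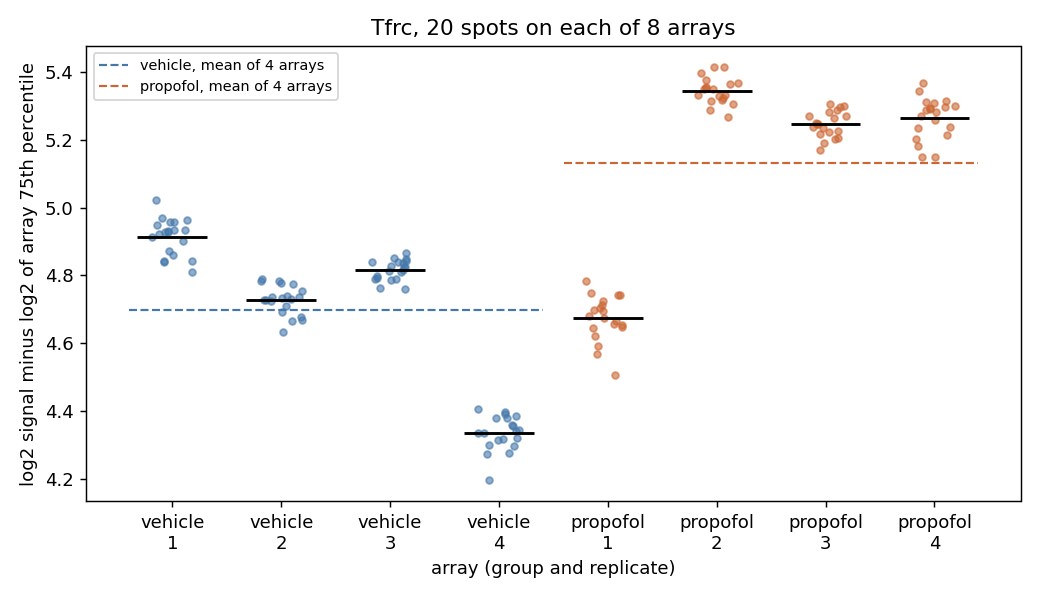
Level of each Tfrc spot (log2 signal minus log2 of the array's 75th percentile, vertical axis) on 8 arrays, with flagged spots left out, the mean of each array as a black bar and the mean of each group as a dashed line. All spots of propofol replicates 2, 3 and 4 lie above the highest vehicle spot at 5.02, and those of propofol replicate 1 lie between 4.51 and 4.78.

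The position of each array was not a matter of a few spots. The SD between spots of one array was 0.029 to 0.067, with a median of 0.048, against 0.28 between arrays of a group, 5.95 times as much. The standard error of an array's mean over its spots was at most 0.0149. Of the 79 unflagged propofol spots, 59 lay above the highest vehicle spot, at 5.02, and these were all the unflagged spots of propofol replicates 2, 3 and 4. The lowest of the 59 was at 5.15. The highest spot of propofol replicate 1 was at 4.78. In vehicle replicate 4, the highest spot was at 4.41, below the lowest spot of the other 7 arrays at 4.51. Spots of one array share its RNA and labelling, so they measure the precision of the array and are not replicates of the treatment.

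The 20 spots were spread from grid row 15 to 379 and from grid column 5 to 154. At every one of the 20 positions the mean over propofol arrays was higher, by 0.32 to 0.46. The 0.32 was at the position of the dropped outlier spot, where the propofol mean is without replicate 2. Spots at the same position deviated alike on different arrays. The correlation of spot deviations between arrays had a median of 0.57 over the 28 pairs and ran from 0.31 to 0.81. The mean deviation of a position ranged from -0.09 to 0.05 and correlated with the grid row at r = 0.67 and with the grid column at r = 0.27 over the 20 positions. This pattern is shared by both groups and is small beside the spread between arrays.

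Within each group, 1 array stood low. Propofol replicate 1 was 0.57 below the next propofol array, while the other 3 had an SD of 0.05. Vehicle replicate 4 was 0.39 below the next vehicle array, while the other 3 had an SD of 0.09. These 2 arrays pull the difference in opposite directions. Without propofol replicate 1 it was 0.59, with a 95% interval of 1.15-fold to 1.96-fold in limma. Without vehicle replicate 4 it was 0.31, a 1.24-fold higher mean with an interval of 0.915-fold to 1.69-fold. With any other array left out the difference lay between 0.36 and 0.51, so Tfrc was higher in propofol on average in each of the 8 fits with 1 array removed.

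The size of the difference followed the scaling. With no scaling of the arrays it was 0.64, where the median tested probe was at 0.17. With quantile normalization it was 0.34 with a 95% interval of -0.11 to 0.78 in limma. Relative to the mean of the other 14 named genes on each array it was 0.43 with an interval of 0.0023 to 0.85. With a normexp background correction it was 0.45 with an interval of 0.04 to 0.85. The mean was higher in propofol under all 20 alternatives tried, and each moved it by less than the SD between arrays. The replicate block and the filters on dim probes cannot move the mean difference, only its interval. The interval lay above 0 under 7 of the 20 alternatives. These intervals make no allowance for the choice of Tfrc by this difference, so the count is a description.

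**Figure D2:**
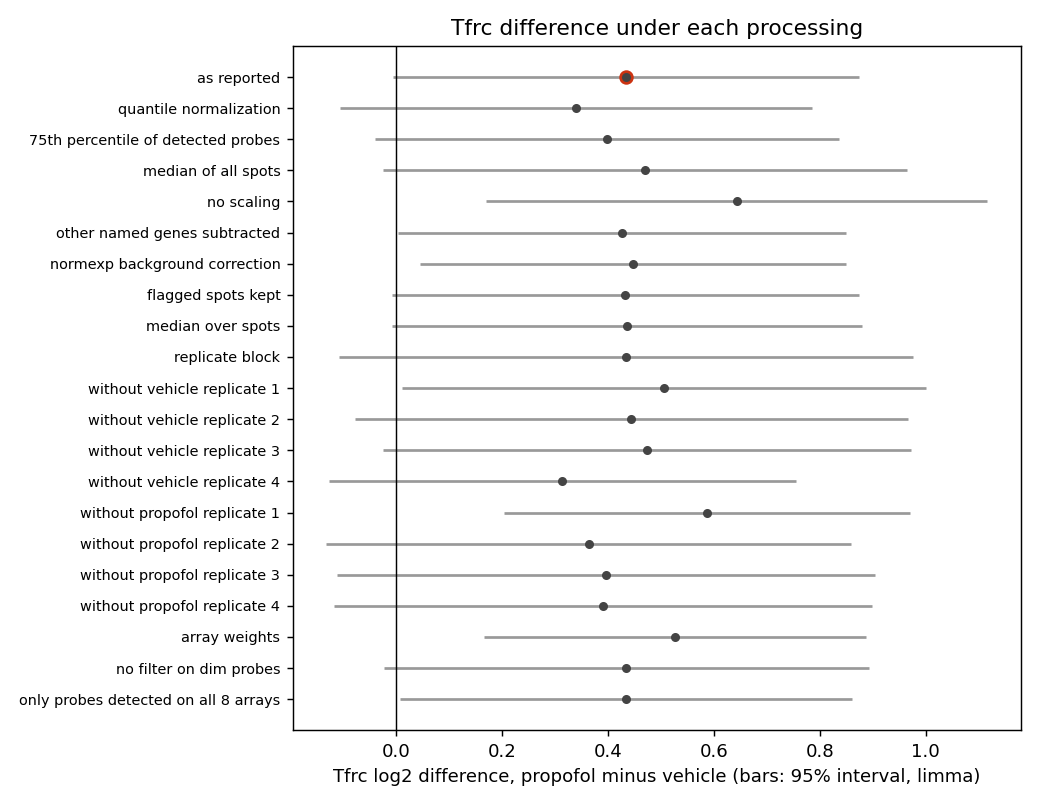
Tfrc log2 difference, propofol minus vehicle (horizontal axis), as reported and under each alternative (vertical axis), with 95% intervals of limma as bars and no difference as a vertical line. The points lie between 0.31 and 0.64, all above 0.

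Next, 4 measures of array quality were set against the Tfrc level over the 8 arrays, to see whether it moved with brightness, with detection or with control spots. The r over all arrays includes the difference between groups by which Tfrc was chosen. It is therefore a description whose permutation p is not given, and only the r within groups is read as a test. Barcode number and group coincide, so the values within groups are also those within a barcode number. The share of spots well above background was 80.2% ± 2.5 (SD, n = 4) for vehicle. For propofol it was 75.4% ± 2.9 (SD, n = 4). Vehicle replicate 4, the lowest array for Tfrc, had the highest share, at 83.5%, and propofol replicate 2, the highest array for Tfrc, had the lowest, at 73.0%. Propofol replicate 1 had 73.6%, next to propofol replicate 2. Over all arrays the share gave r = -0.59 and rho = -0.50 with Tfrc, and r = 0.07 without the 2 arrays farthest from the median share. Within groups r was -0.21 (exact permutation p = 0.688, adjusted 0.905 over the 4 measures) and rho was -0.60 (exact permutation p = 0.212, adjusted 0.840).

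Control spots for Gapdh and Pgk1 carry the suffixes 3 and 5, taken as the transcript ends. Their difference in log2 signal ran from 8.19 to 8.97 for Pgk1 and from -0.62 to -0.02 for Gapdh. The sizes are thus far apart on the same arrays, and whether either follows coverage along the transcript was not tested. For Gapdh the difference was lowest in vehicle replicate 4, at -0.62, and was -0.14 in propofol replicate 1, within the -0.31 to -0.11 of the propofol arrays. Over all arrays it gave r = 0.52 and rho = 0.40 with Tfrc, and r = 0.08 without the 2 arrays farthest from the median. Within groups r was 0.26 (exact permutation p = 0.476, adjusted 0.905) and rho was 0.40 (exact permutation p = 0.420, adjusted 0.840). For Pgk1 the difference was 8.19 in vehicle replicate 4 and 8.88 in propofol replicate 1, the lowest vehicle and the highest propofol value, although both arrays were low for Tfrc. Over all arrays r was 0.03 and rho 0.02, and r was 0.43 without the 2 farthest arrays. Within groups r was -0.04 (exact permutation p = 0.905, adjusted 0.905) and rho was 0 (exact permutation p = 1, adjusted 1). Brightness, the log2 of the 75th percentile, gave r = 0.20 and rho = 0.33 over all arrays, and r = 0.20 without the 2 farthest. Within groups its r was -0.25 (exact permutation p = 0.608, adjusted 0.905) and its rho 0 (exact permutation p = 1, adjusted 1). None of the 4 relations passed within groups, which does not show that Tfrc was unrelated to them.

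**Figure D3:**
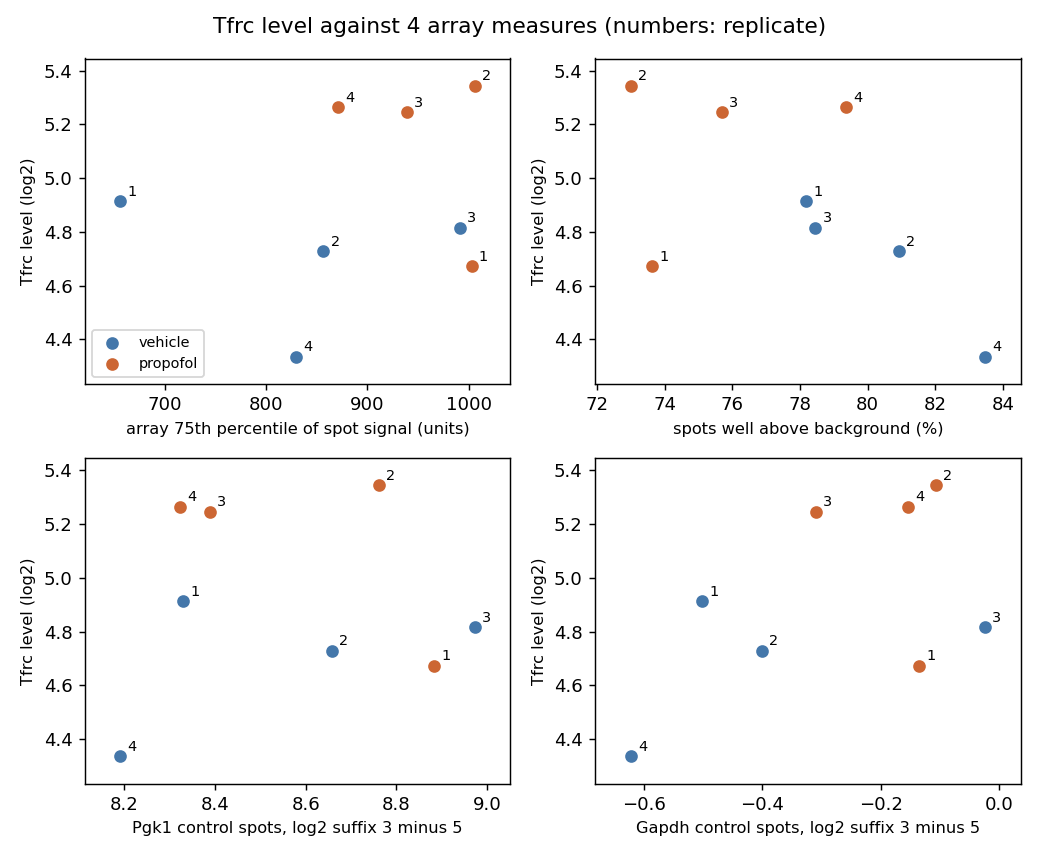
Tfrc level (log2, vertical axes) against array brightness in signal units, the share of spots well above background in percent, and the log2 difference between suffix 3 and suffix 5 control spots of Pgk1 and of Gapdh (horizontal axes), 1 point per array with its replicate number. Vehicle replicate 4 and propofol replicate 1, the low arrays of their groups, lie apart from each other on the share above background (83.5% and 73.6%) and on Pgk1 (8.19 and 8.88).

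Other genes were set beside Tfrc by how they varied among arrays of one group, which the difference between groups does not enter. For each gene the group mean was subtracted and r was taken over the 8 arrays. The points share array, scaling and labelling, so r is a description. The median over the other 14 named genes was 0.00047, and 7 of the 14 were positive. The nearest was B2m, which encodes beta-2-microglobulin of the MHC class I complex, at r = 0.83, followed by Hprt, a purine salvage enzyme, at 0.80 and Rpl13a, a ribosomal protein gene, at 0.63. Without centring these were 0.82, 0.84 and 0.43. They rest in good part on propofol replicate 1, without which r within groups was 0.53 for B2m, 0.44 for Hprt and 0.37 for Rpl13a. Tuba1b, a tubulin gene, and Actb, the beta-actin gene, both named after these values were seen, were then nearest at 0.88 and 0.87, against -0.02 and 0.37 with all arrays. These 2 values rest on vehicle replicate 4, without which r within groups was -0.65 for Tuba1b and -0.32 for Actb. Without that array it was 0.81 for B2m, 0.91 for Hprt and 0.62 for Rpl13a. With all arrays the lowest was Ldhal6b, a lactate dehydrogenase-like gene, at -0.44, and -0.65 without centring. Its r within groups was -0.05 without propofol replicate 1 and -0.57 without vehicle replicate 4.

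The B2m level in vehicle was 3.48, 3.59, 3.48 and 3.31 in replicates 1 to 4, and in propofol 3.27, 3.69, 3.83 and 3.61. For Hprt it was 5.51, 5.28, 5.28 and 5.30 in vehicle, and 5.20, 5.55, 5.64 and 5.56 in propofol. In both genes propofol replicate 1 was the lowest of the 8 arrays, and the other 3 propofol arrays lay above every vehicle array. Another named gene, at r = 0.47 within groups, showed the same. Vehicle replicate 4 was the lowest vehicle array for B2m and not for Hprt. For Rpl13a propofol replicate 1 was again the lowest of the 8, at 3.42, but propofol replicate 4, at 3.45, lay below all vehicle arrays. These 3 genes, taken for their r to Tfrc, were thus low on that array, at a deviation from the group mean of -0.46 for Tfrc, -0.33 for B2m, -0.29 for Hprt and -0.20 for Rpl13a. Of all 14 other named genes, 7 were below and 7 above their group mean in propofol replicate 1, with a median deviation of -0.03. In 4 of the 14 that array was the lowest of the 8. How often this holds over all tested probes was not counted, so nothing is read from it. Propofol replicate 1 also had the highest of the lowest spot signals, at 7.60 units, and the highest median spot signal, at 177 units, of the 8 arrays. Propofol replicate 2, the highest array for Tfrc, was next on both measures, at 6.37 and 161 units. The part of these measures in the low Tfrc level was not tested.

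**Figure D4:**
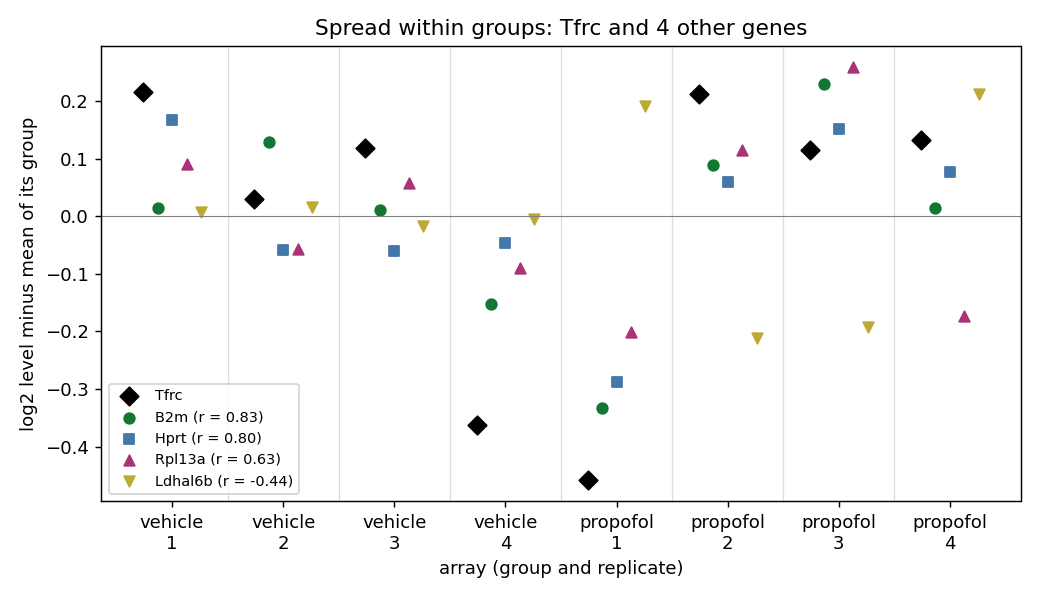
Log2 level minus the mean of its group (vertical axis) for Tfrc and 4 other genes on each array, with r to Tfrc over the 8 arrays in the key. Tfrc, B2m, Hprt and Rpl13a are all below their group mean in propofol replicate 1, from -0.46 to -0.20, and Ldhal6b is above its own.

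Tfrc varied more between arrays than most of the named genes. Its SD within groups was 0.28, against a median of 0.16 over the other 14 and a range of 0.08 to 0.39, and 2 of the 14 exceeded it. Among all tested probes it was ordinary, since the median SD was 0.27 and 46.3% of the probes had a larger one. The other 14 genes differed between propofol and vehicle by -0.24 to 0.14, with 9 higher and 5 lower.

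Of 46833 probes without a gene name, 82 (0.175%) followed Tfrc within groups at r of 0.95 or more and 65 (0.139%) opposed it at -0.95 or less, at a threshold set after the values were seen. The mean was higher in propofol for 67 of the 82 probes, with a median log2 difference of 0.19, and for 10 of the 65, with a median of -0.13. Over all these unnamed probes 43.4% were higher, with a median of -0.04. These probes share the same 8 arrays, so their number is not a number of independent observations. Without propofol replicate 1, 22 of the 82 were still at 0.95 or more, with a median of 0.93. The nearest was ASMM10P036847, at r = 0.996 within groups and 0.66 without centring, which differed by -0.06 between propofol and vehicle. The next was ASMM10P050023, at r = 0.994 within groups and 0.988 without centring. Without propofol replicate 1 their r within groups was 0.999 and 0.996. The level of ASMM10P050023 was 3.03, 2.92, 2.98 and 2.58 in vehicle replicates 1 to 4, and 2.94, 3.58, 3.51 and 3.51 in propofol, a difference of 0.51. Like Tfrc, it was lowest in vehicle replicate 4 and its level in propofol replicate 1 lay among the vehicle arrays. This probe is also in the authors' deposited value table, which has no row for the named Tfrc probe. Its deposited log2 value was 12.9, 12.7, 12.7 and 12.5 in vehicle, and 12.7, 13.2, 13.3 and 13.4 in propofol. The files used here do not pair either probe with a gene.

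The wider iron pathway could not be followed by name. Of 26 genes listed for iron handling, among them the second transferrin receptor Tfr2, transferrin itself, the ferritin chains Fth1 and Ftl1, the exporter Slc40a1 and the regulators Aco1 and Ireb2, only Tfrc had a named probe. Of 29 markers for endothelium, red cell precursors, cycling progenitors, neurons, astrocytes, oligodendrocyte lineage and microglia, 0 had one. The labelled tissue and the share of each cell type were therefore not checked against markers here.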

How the data were processed

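Total RNA was freed of ribosomal RNA, amplified with oligo(dT) and random primers and labelled with Cy3, per the labels' protocols. The deposited spot values are background-subtracted intensity values, which per the file headers came from version 11.0.1.1 of Agilent's Feature Extraction. The authors' deposited table holds log2 intensity values of 22032 probes, with no row for Tfrc; its normalization is not given in the sources used here.

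Control spots and negative control probes were left out, and 61200 spots were scaled as log2 minus the 75th percentile of the array. Outlier spots, 0.413% of all, were dropped and spots of one probe averaged. Probes well above background on at least 4 arrays, with 2 unflagged arrays per group, were fitted with limma (3.58.1, under R 4.3.3), and two-sided p-values were adjusted over 47777 probes by Benjamini-Hochberg. Samples were grouped by title. Correlations were tested by exact two-sided permutation of the arrays within groups, in Python 3.11.15. The fit and the permutation test were checked on simulated data.

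The 15 accessions were matched without versions to a RefSeq table. The grid names an older mouse build, so promoter coordinates are those of RefSeq alone. The probe sequence was not used here. Named genes are the 3 with the highest and the 1 with the lowest r to Tfrc within groups, and the 2 unnamed probes with the highest. Tuba1b and Actb were added after the values were seen, for their r without propofol replicate 1. Tfrc and the lists were chosen with earlier results of these data known. The number of arrays limits the precision. Alternatives were other scalings, normexp on the median signal, other spot and probe filters, array weights, a replicate block, the deposited values and leaving out each array.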

Additional observations from a re-analysis of the deposited data

Results flagged for a closer look

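Tfrc in propofol replicate 1 stood at 4.67, far from the 5.25 to 5.34 of the other propofol arrays. The gap was 0.853 of the whole range of the group, above Dixon's 95% critical value for 4 values. The level of Tfrc and 5 array measures were examined in both groups, 12 sets of 4 values in all, and 1 was so far from the rest. Chance gives about 1 in 20, or 0.6 of 12, and Tfrc was chosen on these same values, so the distance is a description.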

How the results depend on the processing

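The Tfrc difference of 0.43 kept its direction under all 20 alternatives, from 0.34 to 0.64 with every array kept and from 0.31 to 0.59 with 1 array left out. The replicate block and the filters on dim probes can change only its 95% interval, which lay above 0 under 7 of the 20. Tfrc was chosen by this difference, so that count is a description and no test. With a replicate block the difference was 0.43 with a 95% interval of -0.11 to 0.98, and 2495 probes had an unadjusted p under 0.05 in limma, against 3756. The replicate numbers were not used as pairs, since the deviations of same-numbered arrays correlated at -0.33 to 0.22. Past an adjusted p of 0.05 in limma there were 0 probes, 1 with no scaling and 3 with normexp. At an unadjusted p under 0.05 there were 8339 with array weights, 5736 with no scaling, 6206 with no filter on dim probes and 1368 in the deposited value table. The 2 filters on dim probes, for the Tfrc difference, and array weights, for the counts, were added after seeing the data.

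The r of Tfrc with the Pgk1 measure turned to -0.34 with quantile normalization and to -0.056 when the 75th percentile was taken over probes detected on every array, and ranged from -0.49 to 0.19 with 1 array left out. With brightness it turned to -0.078 with quantile normalization, and ranged from 0.03 to 0.38 with 1 array left out. With the Gapdh measure it was 0.76 with no scaling, and 0.15 to 0.67 with 1 array left out. With the share of spots well above background it was -0.85 without propofol replicate 1, in a range of -0.85 to -0.28 with 1 array left out. The cause of these changes was not tested. The deposited values gave no Tfrc difference, because no row of that table is named as Tfrc.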
